A study of Mus musculus with 7 samples.

Results

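The genes that encode the proteins of the cytosolic ribosome were compared between tumors grown from mouse fibroblasts that lack nuclear myosin 1 (NM1) and tumors grown from the same cells with NM1 put back. The members were the protein-coding genes whose symbol starts with Rps or Rpl and a digit, or is Rpsa, Rplp0, Rplp1 or Rplp2, without the S6 kinases, the Rps19 binding protein and pseudogenes. This rule found 85 of the 46603 Ensembl genes counted, 52 of the large and 33 of the small subunit, and used no measured value. KO cells were mouse embryonic fibroblasts (MEFs, line CRL-2752) whose NM1 had been removed with CRISPR/Cas9. KO + NM1 cells were KO MEFs that carry NM1 with HA and V5 tags on a lentiviral vector and were grown as single clones under neomycin, so each arm also holds the history of its clone. Cells were injected into female Balb/c nude mice aged 16 weeks, and tumors were taken after up to 30 days per the sample descriptions. The paper itself gives a slightly shorter time. The paper gives the site as under the skin of the right flank in its methods and as the mammary pads in its results. Bulk RNA-seq gave 3 KO libraries and 4 KO + NM1 libraries. Each library was a piece of tumor homogenized separately, and the descriptions name 1 tumor per condition cut into 4 pieces, so SD and p-values here cover the spread between pieces, which may hold no difference between mice. No tumor of unmodified cells was analysed here.

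A ribosome is built from a small subunit, which reads the messenger RNA, and a large subunit, which joins the amino acids. Each subunit is a core of ribosomal RNA covered by proteins that are mostly present as single copies. Their messenger RNAs are among the most abundant in dividing cells, begin with a tract of pyrimidines that places their translation under mTOR, and have left many processed pseudogenes in the mouse genome.

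Total counts were 24088309 to 28326568 per library. Myo1c, the gene that encodes NM1 as an isoform, was read at 313, 289 and 306 CPM (counts scaled to a common library size with TMM factors) in KO pieces 1 to 3 and at 438, 408, 406 and 382 CPM in KO + NM1 pieces 1 to 4, a log2 fold change of -0.43 ± 0.13 (SE; edgeR adjusted p = 0.031), and gene counts do not separate its isoforms. The pieces did not hold the same tissue. The summed level of 10 skeletal muscle markers was 2690 to 22100 CPM in the KO pieces and 7.26 to 26.1 CPM in the KO + NM1 pieces, where 3 of the 10 had at most 3 counts in every piece, and all 10 were higher in KO by edgeR. That of 10 white adipocyte markers was 133 to 322 CPM in KO and 5260 to 39100 CPM in KO + NM1, and that of 10 proliferation genes was 2190 to 2830 CPM in KO and 34.9 to 186 CPM in KO + NM1, with all 10 lower and all 10 higher in KO by edgeR, respectively. Markers of fibroblasts, the injected cell type, were present in both groups, at a summed 9870 to 16000 CPM in KO and 4080 to 15400 CPM in KO + NM1, with 1 higher and 4 lower of 10 in KO by edgeR. Of 10 macrophage markers 7 were higher in KO, at a summed 3690 to 4210 CPM against 691 to 2570 CPM, and all 10 endothelial markers were lower, at 256 to 295 CPM against 1350 to 2030 CPM. Of the markers tested for brown adipocytes, mammary secretory epithelium and erythroid cells, 5 of 8, 6 of 8 and 5 of 5 were lower in KO, and for keratinocytes 1 of 7 was higher. KO + NM1 piece 1 stood apart from the other pieces of its group, with B cell markers at a summed 6480 CPM against 4.65 to 24.5 CPM in pieces 2 to 4 and 31.5 to 72.2 CPM in KO. In bulk pieces a lower share of a cell type and less RNA per cell of that type cannot be told apart, and the part of tissue content in the differences below was not tested.

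**Figure D1:**
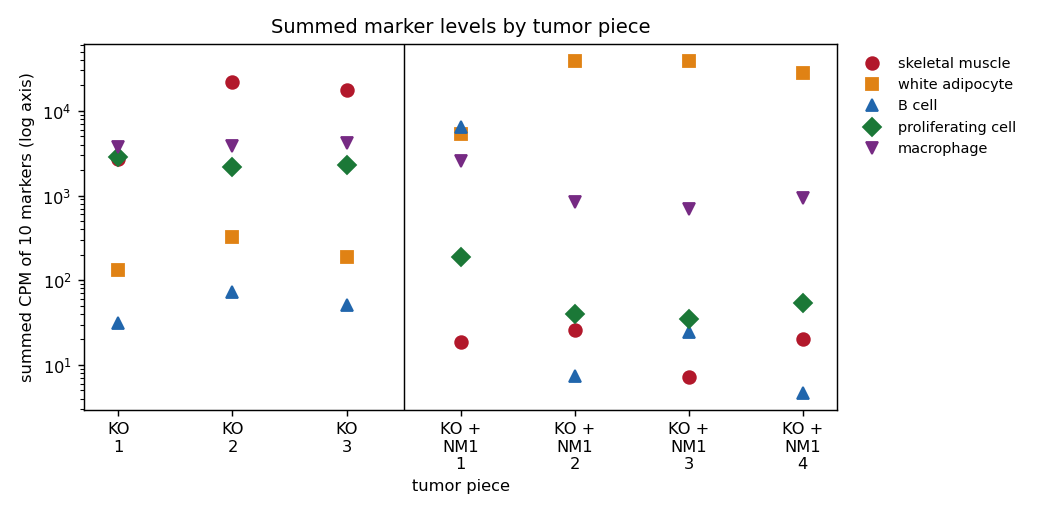
Summed CPM of 10 marker genes for each of 5 cell types or states (symbols) in the 3 KO and 4 KO + NM1 tumor pieces, on a log axis. Muscle and proliferation markers were high in KO, adipocyte markers were high in KO + NM1, and B cell markers reached 6480 CPM in KO + NM1 piece 1.

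The share of all counts that fell on ribosomal protein genes was 3.10%, 2.91% and 2.67% in KO pieces 1 to 3. In KO + NM1 pieces 1 to 4 it was 3.71%, 1.91%, 1.45% and 2.12%. KO + NM1 piece 1 was thus the highest library of all and the other 3 pieces of its group were the lowest, with the KO pieces between them. The group means were 2.89% ± 0.215 (SD, n = 3) for KO and 2.30% ± 0.982 (SD, n = 4) for KO + NM1, or 1.83% ± 0.343 (SD, n = 3) without piece 1. Mitochondrially encoded genes took 1.81 to 2.14% of counts in KO and 5.11 to 18.5% in KO + NM1. With them left out of the denominator the shares were 2.72 to 3.16% in KO and 3.91%, 2.13%, 1.78% and 2.30% in KO + NM1, in which the order of piece 1, KO and pieces 2 to 4 was the same.

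The balance between the subunits separated the groups. Counts on large subunit genes were 1.46, 1.42 and 1.41 times those on small subunit genes in KO pieces 1 to 3, and 1.10, 1.22, 1.22 and 1.20 times in KO + NM1 pieces 1 to 4. Every KO piece was above every KO + NM1 piece in this ratio, and piece 1 was the lowest although it had the most ribosomal protein counts. Large subunit genes took 1.56 to 1.84% of all counts in KO and 0.799 to 1.95% in KO + NM1, and small subunit genes took 1.11 to 1.26% and 0.653 to 1.77%. The ratio weighs abundant genes most and was not tested.

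**Figure D2:**
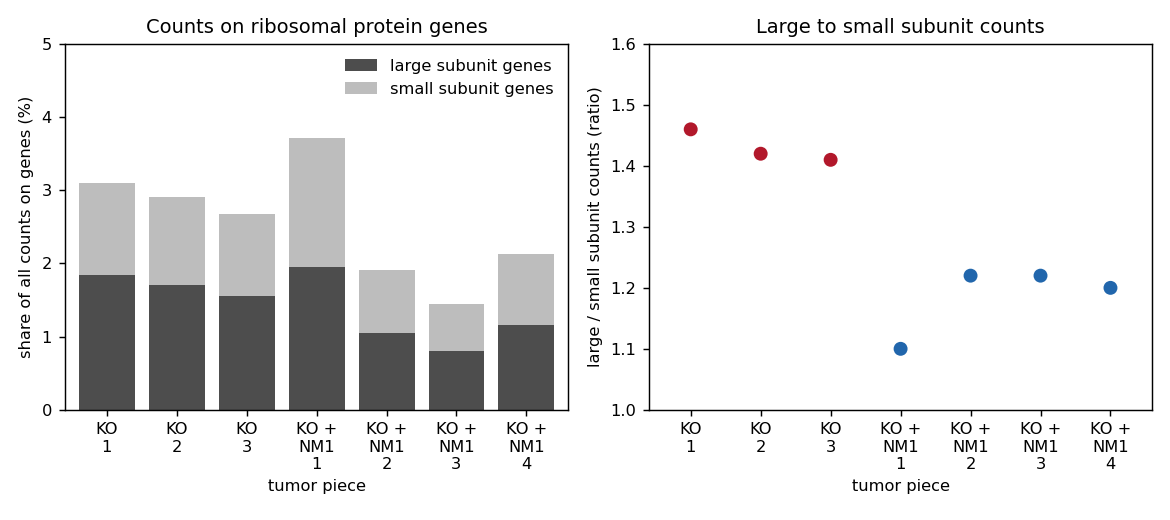
Left, share of all counts on genes that fell on large (dark) and small (light) subunit genes in each tumor piece, in percent. Right, ratio of large to small subunit counts in each piece (red KO, blue KO + NM1), with the axis starting at 1. The KO ratios were 1.41 to 1.46 and the KO + NM1 ratios 1.10 to 1.22.

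Of the 85 members, 84 passed the filter on low counts. Rpl10l, a paralog of Rpl10 known from the testis, had 0 counts in all 7 libraries and was not tested. At an adjusted p under 0.05, 14 members were higher in KO, where 25.7% of all 16887 genes tested were higher. No member was lower by edgeR, where 24.5% of all genes were lower, and at an unadjusted p under 0.05 the counts were 16 higher and 0 lower. DESeq2 called 2 members lower, Rpl22 and Rps29, and limma's voom with quality weights called 3. With a change of at least 2-fold as well, 4 members were higher, Rpl3l, Rpl34, Rps26 and Rpl27, and 0 were lower, beside 17.1% and 20.3% of all genes. In all, 16.7% of members passed the adjusted p against 50.2% of all genes tested. The median log2 fold change of members was 0.21, with quartiles of -0.04 and 0.46, beside a median of 0.00 and quartiles of -1.02 and 0.80 for all genes. Of the 84 members, 80 had a log2 fold change under 1 in size. Of the large subunit genes, 11 of 51 were higher, with a median log2 fold change of 0.29, and of the small subunit genes 3 of 33 were higher, with a median of 0.01, which was -0.08 with DESeq2's size factors, -0.14 with upper-quartile scaling and 0.15 with library size alone. The large subunit median was 0.13 to 0.44 under those scalings.

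The count of 14 rested on which pieces entered. Without KO + NM1 piece 1, 39 members were higher and 3 were lower (Rps24, Rps29 and Rpl22), beside 35.8% and 36.0% of all genes, and the median was 0.30. All 14 of the calls above were among these, and 28 members were added. Without KO piece 1, 2 or 3 the number higher was 4, 5 and 5, and without KO + NM1 piece 2, 3 or 4 it was 8 each time. The 4 members past 2-fold stayed past it in each of these fits. Among them, the share of all genes called is given only for the fit without KO + NM1 piece 1. For the other fits a change in number is therefore not shown to be particular to the members.

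Piece 1 of KO + NM1 was the highest of its group for 81 of the 84 members and the highest of all 7 pieces for 58, against 43.0% and 23.0% of all genes tested. Every KO piece was above every KO + NM1 piece for 14 members and below for 3 (Rps24, Rps27 and Rps29), where 30.5% and 26.4% of all genes were above and below. Set against KO + NM1 pieces 2 to 4 alone, every KO piece was above for 59 members and below for 3, where 42.6% and 35.0% of all genes were. For 35 members all KO pieces lay between pieces 2 to 4 and piece 1.

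**Figure D3:**
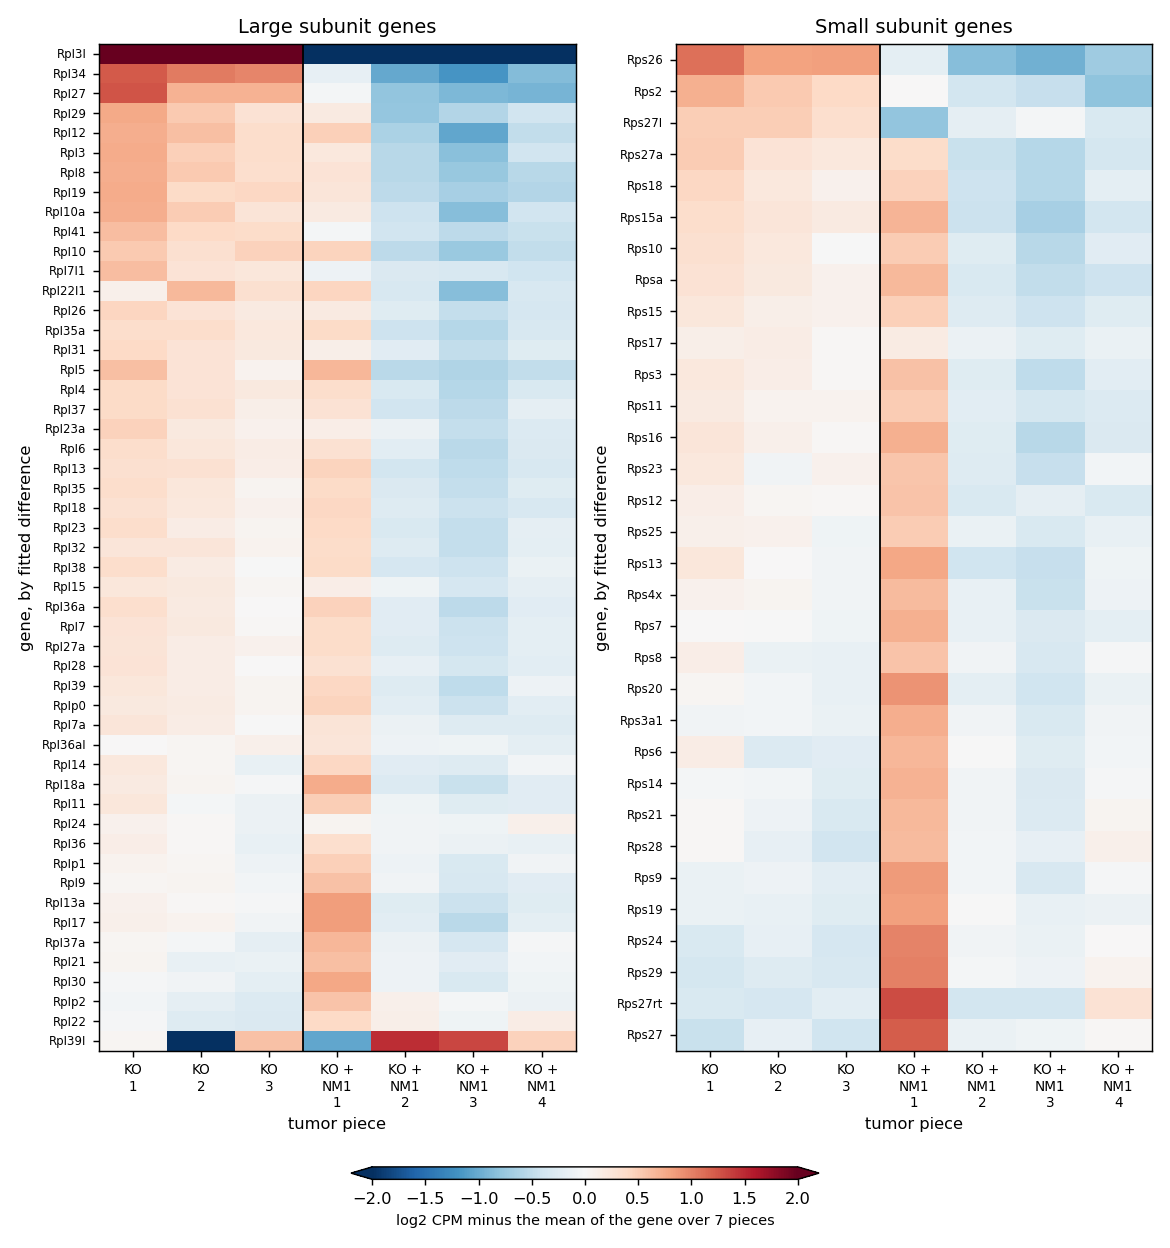
Log2 CPM of the tested members, all but 1 of the 84, in each tumor piece, minus the mean of that gene over the 7 pieces, for large (left) and small (right) subunit genes ordered by fitted difference. Colors past 2 are cut off. KO + NM1 piece 1 was the highest of all pieces for 58 members.

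**Figure D4:**
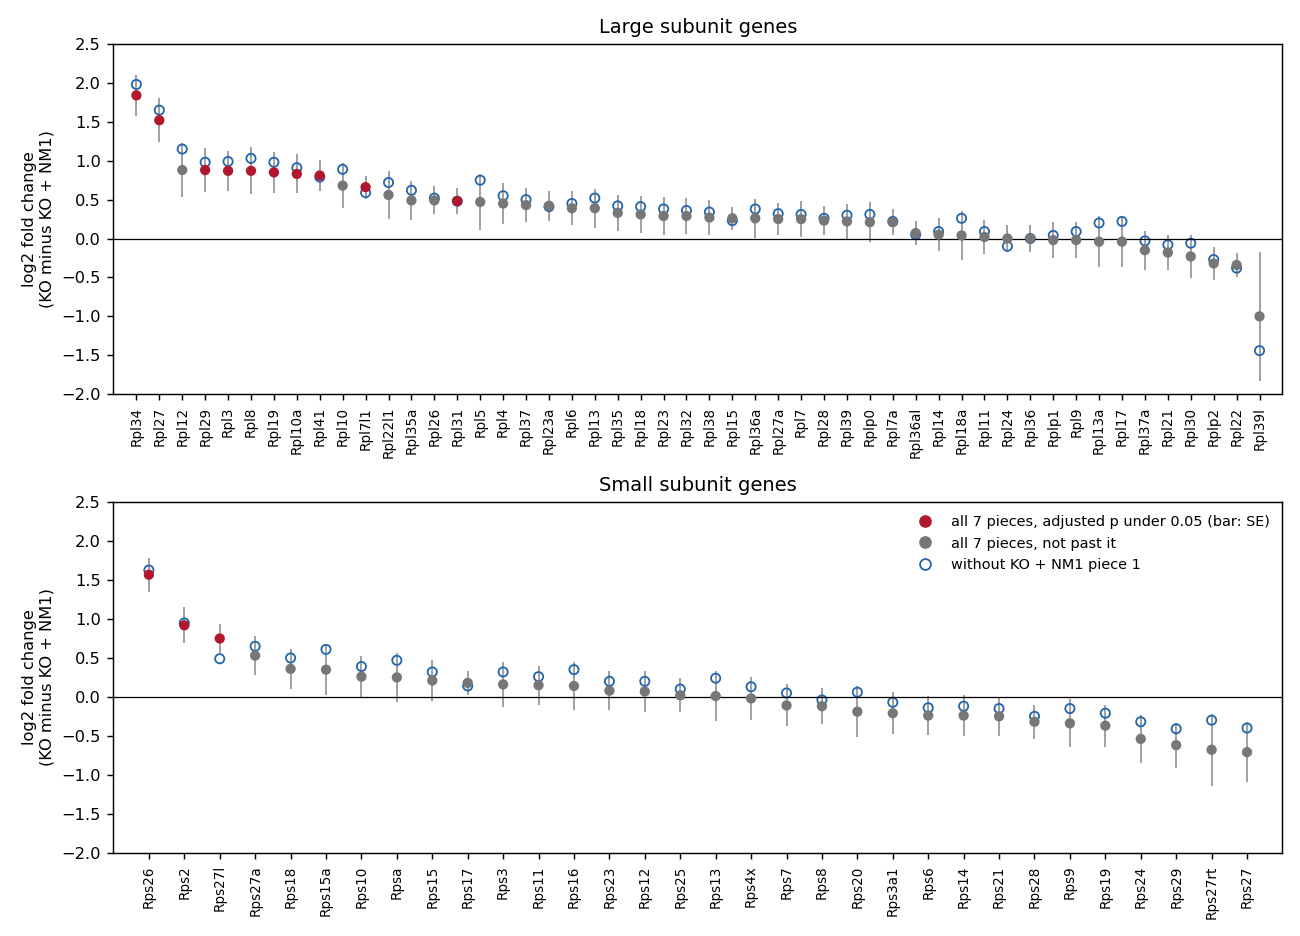
Fitted log2 fold change, KO minus KO + NM1, of the tested members with bars of 1 SE, by subunit, with 1 small subunit gene not drawn. Red points passed an adjusted p under 0.05, grey points did not, and open circles are the fit without KO + NM1 piece 1. Rpl3l, at 7.67, lies outside the axis and is not drawn. Large subunit genes had a median of 0.29 and small subunit genes a median of 0.01.

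Rpl34, a protein of the large subunit, had the largest rise after Rpl3l. It was at 278, 245 and 236 CPM in KO pieces 1 to 3 and at 106, 58.4, 52.8 and 65.5 CPM in KO + NM1 pieces 1 to 4, a log2 fold change of 1.84 ± 0.26 (SE; edgeR adjusted p = 0.00154). The groups did not overlap, and piece 1 was the highest of its group. Rps26, which lines the channel where the messenger RNA leaves the small subunit, was at 585, 473 and 481 CPM in KO and at 236, 150, 139 and 166 CPM in KO + NM1, a log2 fold change of 1.57 ± 0.22 (SE; edgeR adjusted p = 0.00158). Again no KO + NM1 piece reached a KO piece.

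Counts on the processed pseudogenes of these genes went the other way. Rpl34-ps1 was at 30.4, 46.5 and 33.8 CPM in KO and at 163, 88.3, 75.3 and 91.3 CPM in KO + NM1, a log2 fold change of -1.50 ± 0.30 (SE; edgeR adjusted p = 0.00706). Rps26-ps1 was at 34.9, 50.9 and 44.8 CPM in KO and at 166, 111, 89.2 and 111 CPM in KO + NM1, a log2 fold change of -1.45 ± 0.24 (SE; edgeR adjusted p = 0.00328). The pseudogene held 9.85%, 16.0% and 12.5% of the counts of the Rpl34 pair in KO and 60.6%, 60.2%, 58.8% and 58.2% in KO + NM1. For the Rps26 pair it held 5.63%, 9.72% and 8.51% in KO and 41.2%, 42.5%, 39.1% and 40.1% in KO + NM1. Within KO + NM1 these shares stayed within a few percent, also in piece 1, while the levels of the pairs did not. Each pseudogene matches its parent almost completely. Over the 351 coding bases of Rpl34 (without the stop codon) Rpl34-ps1 differs at 2, T132C and C318G, and over the 345 of Rps26 Rps26-ps1 differs at 2, C30T and G270A. Positions are counted from 1 at the A of the start codon, with the base of the gene first and that of the pseudogene second. Rpl34 lies on chr3:130726831-130730398 and Rpl34-ps1 on chr6:71124610-71124963, Rps26 lies on chr10:128624534-128626747 and Rps26-ps1 on chr8:107439131-107439579 (GRCm38, GENCODE M21). The 41 bases around each difference are shown because they are all that tells the members of a pair apart in coding sequence, with the base that differs in capitals.
Rpl34, T132C: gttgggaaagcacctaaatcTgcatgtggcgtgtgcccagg
Rpl34-ps1, T132C: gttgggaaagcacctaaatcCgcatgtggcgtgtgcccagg
Rpl34, C318G: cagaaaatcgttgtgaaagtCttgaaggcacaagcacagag
Rpl34-ps1, C318G: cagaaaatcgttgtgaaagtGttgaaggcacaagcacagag
Rps26, C30T: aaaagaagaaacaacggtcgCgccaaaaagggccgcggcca
Rps26-ps1, C30T: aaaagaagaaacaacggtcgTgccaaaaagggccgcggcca
Rps26, G270A: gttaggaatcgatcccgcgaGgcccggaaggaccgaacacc
Rps26-ps1, G270A: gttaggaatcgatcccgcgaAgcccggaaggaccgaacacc

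Of the windows of 75 bases in the coding sequence, 60.6% of those of Rpl34 and 61.3% of those of Rps26 occur unchanged in the pseudogene. A single read that lies within such a window has no base that tells them apart, though its mate in a read pair may hold one. With the counts of all pseudogenes added to the member they are named after, the log2 fold change of Rpl34 was 0.73 (edgeR adjusted p = 0.0574) and that of Rps26 was 0.93 (edgeR adjusted p = 0.0123), so the call for Rpl34 was lost and neither passed 2-fold. The pairs summed to 309, 291 and 270 CPM in KO and 269, 147, 128 and 157 CPM in KO + NM1 for Rpl34. For Rps26 they summed to 620, 524 and 526 CPM in KO and 402, 261, 228 and 278 CPM in KO + NM1. The sums of both pairs were higher in every KO piece than in every KO + NM1 piece, with KO + NM1 piece 1 next to KO.

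**Figure D5:**
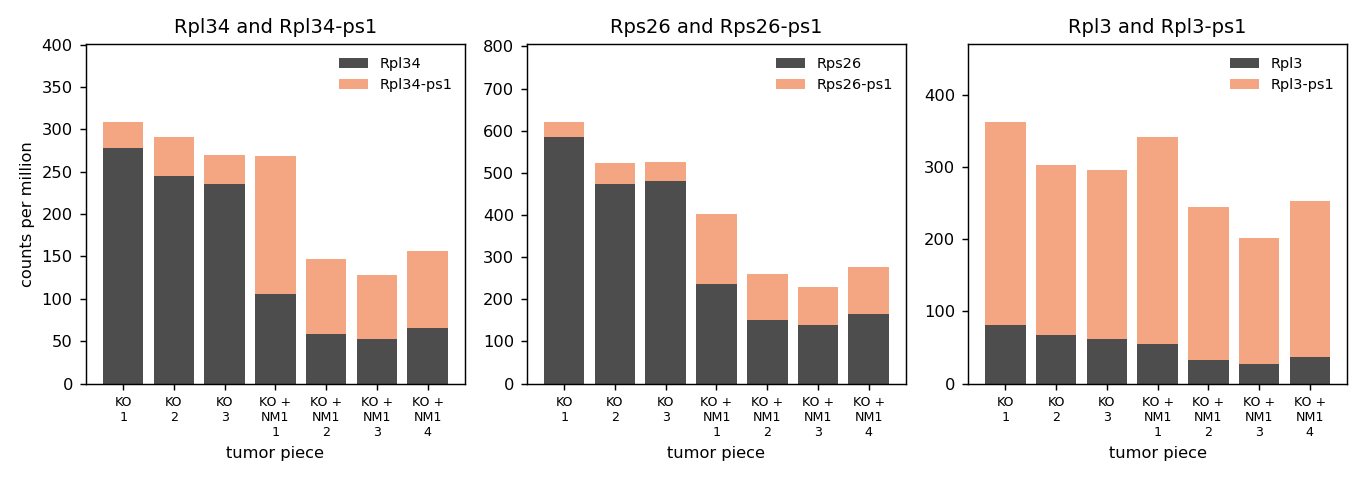
CPM of Rpl34, Rps26 and Rpl3 (dark) with that of a near-identical processed pseudogene stacked on top (light) in each tumor piece. For Rpl34 and Rps26 the pseudogene held 5.63 to 16.0% of the counts of the pair in KO and 39.1 to 60.6% in KO + NM1. For Rpl3 it held most of the counts in every piece.

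Rpl3, which sits next to the catalytic center of the large subunit, shared its counts with Rpl3-ps1 in a different way. Rpl3 was at 80.5, 67.0 and 61.4 CPM in KO and at 55.4, 32.9, 26.9 and 36.7 CPM in KO + NM1, a log2 fold change of 0.87 ± 0.26 (SE; edgeR adjusted p = 0.0257). Rpl3-ps1, on the X chromosome, was at 281, 236 and 234 CPM in KO and at 286, 212, 174 and 216 CPM in KO + NM1, a log2 fold change of 0.17 ± 0.20 (SE; edgeR adjusted p = 0.493). It held 77.8 to 79.2% of the counts of the pair in KO and 83.8 to 86.6% in KO + NM1, more than the gene itself in all 7 pieces. It differs from the 1209 coding bases of Rpl3 at 2, C57A and T786C. With pseudogene counts added, the log2 fold change of Rpl3 was 0.30 (edgeR adjusted p = 0.27) and the call was lost.

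Shared sequence touched most members. Over the main transcript of each member, a median of 45.9% of 75-base windows also occurred in a transcript of another gene, from 0%, as in Rpl3l, Rpl39l and Rps3, to 98.5% (Rps27), and 39 of the 85 members shared over 50%. Levels of such members are uncertain, since reads that fit several genes can be lost or given to another gene. Counts on pseudogenes came to 3.68 to 3.98% of the counts on members in KO and 3.47 to 4.23% in KO + NM1. Among the 21 tested members with at most 25% of windows shared, 4 were higher (Rpl3l, Rpl8, Rps27l and Rpl7l1) and 0 were lower by edgeR. Of all genes tested, 25.7% were higher and 24.5% lower. The median log2 fold change of the 21 members was 0.16, beside 0.21 for all members. The medians of the 11 large and 10 small subunit genes among them were 0.29 and 0.07.

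Rpl3l takes the place of Rpl3 in the ribosomes of striated muscle. It had 265, 597 and 694 counts in KO pieces 1 to 3 and 4, 2, 1 and 1 counts in KO + NM1 pieces 1 to 4, or 8.83, 20.8 and 22.9 CPM against 0.0411 to 0.146 CPM. Summed over pieces the ratio of KO to KO + NM1 was 211, with an exact 95% interval of 107 to 489 that covers counting error only. The fitted log2 fold change was 7.67 ± 0.55 (SE; edgeR adjusted p = 0.000273), and its size depends on the prior count. KO piece 1, with the lowest Rpl3l of the KO pieces, also had the lowest muscle markers, at a summed 2690 CPM against 22100 and 17700 CPM in KO pieces 2 and 3. Eef1a2, the elongation factor of muscle and neurons, was likewise lowest in KO piece 1 among the KO pieces, at 38.5, 260 and 208 CPM in KO and at most 0.203 CPM in KO + NM1.

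The start regions of a few members are shown to compare Rpl34 and Rps26, which rose, with Rps24 and Rps28, which were lower relative to the other members, and with the muscle paralog. RefSeq start regions (GRCm38.p6) were found for 65 of the 85 members, at 77 starts. Each line gives 90 bases before and 30 bases after the annotated start, and capitals mark a C followed by 7 or more pyrimidines within 50 bases of the start.
Rpl34, chr3:130730369-130730488, minus strand: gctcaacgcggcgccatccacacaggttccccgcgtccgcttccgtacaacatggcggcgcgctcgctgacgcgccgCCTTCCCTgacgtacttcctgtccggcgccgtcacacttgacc
Rps26, chr10:128626477-128626596, minus strand: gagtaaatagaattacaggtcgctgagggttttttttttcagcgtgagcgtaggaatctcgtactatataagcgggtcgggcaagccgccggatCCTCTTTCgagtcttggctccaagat
Rps24, chr14:24490588-24490707, plus strand: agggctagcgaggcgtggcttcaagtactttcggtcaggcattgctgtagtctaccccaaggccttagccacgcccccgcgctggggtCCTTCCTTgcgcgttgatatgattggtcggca
Rps28, chr17:33824533-33824652, minus strand: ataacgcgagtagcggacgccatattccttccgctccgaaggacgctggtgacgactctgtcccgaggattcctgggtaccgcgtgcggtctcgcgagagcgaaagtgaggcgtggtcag
Rpl3l, chr17:24727736-24727855, plus strand: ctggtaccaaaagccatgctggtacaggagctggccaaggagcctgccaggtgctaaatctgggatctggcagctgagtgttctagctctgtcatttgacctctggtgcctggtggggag

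A pyrimidine run of this kind was present on the gene strand at 59 of the 77 starts, or 76.6%, against 28.8% of all 32851 starts in the table. It was at 38 of 47 large subunit starts, 21 of 30 small subunit starts and 11 of the 16 starts of members that were higher in KO. Over the whole 300-base region and on either strand, CCGGAAG was at 35.1% of member starts against 8.86% of all starts, AAGATGGC at 10.4% against 2.75%, and GGGCGG at 59.7% against 35.7%. TATAAA on the gene strand was at 7.79% against 8.32%. Rpl34, higher in KO, and Rps24, lower in KO relative to the other members, both had the run. It began at -13 bases from the annotated start in Rpl34 and at -2 and 39 bases in Rps24. Rpl3l had the run at 31 bases, past the bases shown, and Rps28 did not have it. A run that lies before the start, as in Rpl34, is not part of the annotated messenger RNA. Annotated starts can be off by some bases, and a match describes the letters only.

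Other paralogs are given beside the genes they resemble, and differences between paralog and parent were not tested. Rps27l, a small subunit paralog known to be induced by p53, was at 128, 129 and 116 CPM in KO and at 53.0, 80.4, 88.6 and 73.8 CPM in KO + NM1, a log2 fold change of 0.75 ± 0.19 (SE; edgeR adjusted p = 0.014). Here KO + NM1 piece 1 was the lowest library, unlike for most members. Rps27 itself was at 3.80, 4.62 and 3.93 CPM in KO and at 12.0, 4.72, 4.89 and 5.30 CPM in KO + NM1 (log2 fold change -0.71 ± 0.39, edgeR adjusted p = 0.18), and its retrocopy Rps27rt was at -0.68 ± 0.46 (edgeR adjusted p = 0.263). Per kb of exon Rps27 averaged 5.37 CPM over the 7 pieces against 1840 CPM for Rplp1, and 98.5% and 90.3% of the windows of Rps27 and Rps27rt occur in other genes.

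Rpl7l1, which acts in the assembly of the large subunit, was at 160, 127 and 122 CPM in KO and at 97.4, 85.7, 83.5 and 79.8 CPM in KO + NM1, a log2 fold change of 0.66 ± 0.15 (SE; edgeR adjusted p = 0.00911), without overlap. Rpl7 was at 0.25 ± 0.23 (edgeR adjusted p = 0.394). Rpl22l1 was at 0.56 ± 0.31 and Rpl22 at -0.34 ± 0.16 (edgeR adjusted p = 0.161 and 0.126). Without KO + NM1 piece 1 Rpl22l1 was higher, at 0.72 (edgeR adjusted p = 0.0124), and Rpl22 was lower, at -0.38 (edgeR adjusted p = 0.0228). Rpl36al and Rpl36a were at 0.07 ± 0.15 and 0.26 ± 0.25, and Rpl36a passed without KO + NM1 piece 1, at 0.38 (edgeR adjusted p = 0.027). Rpl39l, known from the testis and some tumors, had 3 to 34 counts in KO and 10 to 51 counts in KO + NM1, and its log2 fold change of -1.0 ± 0.83 did not pass (edgeR adjusted p = 0.357). Rpl39, which lines the exit tunnel, was at 0.22 ± 0.23. Rps4l, annotated as a transcribed pseudogene and so not a member, had 34 to 43 counts in KO and 237 to 604 in KO + NM1 (log2 fold change -3.83 ± 0.38, edgeR adjusted p = 0.000858), while Rps4x was at -0.02 ± 0.28. A further processed pseudogene, Rps3a2, had 693 to 876 counts in KO and 20 to 57 in KO + NM1.

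The remaining members that rose were mostly of the large subunit. Rpl27 was at 50.3, 33.9 and 34.1 CPM in KO and at 20.4, 12.2, 11.3 and 11.0 CPM in KO + NM1, a log2 fold change of 1.52 ± 0.28 (SE; edgeR adjusted p = 0.00427). Rpl8, a conserved protein near the catalytic center with 4.9% of windows shared, was at 1580, 1370 and 1210 CPM in KO and at 1160, 654, 568 and 649 CPM in KO + NM1, a log2 fold change of 0.87 ± 0.30 (SE; edgeR adjusted p = 0.0427). The gap between KO piece 3 and KO + NM1 piece 1 was small beside the range of the KO pieces. Rpl41, the shortest ribosomal protein, was at 1600, 1380 and 1350 CPM in KO and at 1010, 798, 728 and 769 CPM in KO + NM1, a log2 fold change of 0.81 ± 0.20 (SE; edgeR adjusted p = 0.0135). Rps2, at the entry of the messenger RNA channel, was at 24.2, 21.3 and 19.5 CPM in KO and at 15.0, 11.5, 10.8 and 8.51 CPM in KO + NM1, a log2 fold change of 0.92 ± 0.23 (SE; edgeR adjusted p = 0.0134). Most counts of Rps2 and its pseudogenes fell on the pseudogenes, which had 10336 to 14479 counts in KO and 4468 to 6753 in KO + NM1, beside 591 to 725 and 207 to 410 for Rps2 itself, and with them added the log2 fold change was 0.84 (edgeR adjusted p = 0.006). Rpl27, Rpl8, Rpl41 and Rps2 each had every KO piece above every KO + NM1 piece. Rpl29, Rpl19, Rpl10a and Rpl31 were also higher, with log2 fold changes of 0.88, 0.85, 0.83 and 0.48 and edgeR adjusted p-values of 0.0364, 0.0284, 0.0296 and 0.0438. With pseudogene counts added Rpl31 was at 0.42 and did not pass (edgeR adjusted p = 0.0736), and 11 of the 14 calls were left, without Rpl3, Rpl31 and Rpl34. Rpl8, Rpl29, Rpl10a and Rpl31 were named after their values were seen, as part of the list of calls.

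In the stalk that recruits elongation factors, Rplp0 was at 0.21 ± 0.26, Rplp1 at -0.02 ± 0.23 and Rplp2 at -0.32 ± 0.21 (log2 fold change and SE). Rplp1, the member with the most counts per length, was at 1900, 1860 and 1700 CPM per kb of exon in KO and at 2530, 1680, 1460 and 1720 CPM per kb in KO + NM1, so that the groups overlapped. The next members by counts per length were Rps15, with a mean of 1240 CPM per kb over the 7 pieces, and Rpl41, with 934 CPM per kb. Rpl5 and Rpl11, which form the 5S particle and bind Mdm2 when assembly fails, were at 0.47 ± 0.36 and 0.02 ± 0.22. Rpl5 was at 27.9, 22.2 and 19.3 CPM in KO and at 29.1, 12.6, 12.1 and 13.0 CPM in KO + NM1, and it passed without KO + NM1 piece 1, at 0.75 (edgeR adjusted p = 0.00475). Rps6, the substrate of S6 kinase, was at 115, 85.3 and 88.5 CPM in KO and at 164, 103, 88.0 and 99.5 CPM in KO + NM1, at -0.24 ± 0.25 (edgeR adjusted p = 0.443).

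Around the exit tunnel of the large subunit, Rpl19 and Rpl31 rose, and Rpl23a and Rpl35 were at 0.42 ± 0.19 and 0.33 ± 0.23. Of the decoding region Rps2 rose, and Rps3, Rps23 and Rps15 were at 0.16, 0.08 and 0.21. Of the messenger RNA exit, Rps26 rose, and Rps14, Rpsa and Rps28 were at -0.24, 0.25 and -0.32. Of the head of the small subunit, Rps10, Rps18, Rps19 and Rps25 were at 0.26, 0.36, -0.37 and 0.02, and none passed by edgeR with all pieces. Rps27a, made as a fusion with ubiquitin, was at 0.53 ± 0.25 and passed without KO + NM1 piece 1, at 0.65 (edgeR adjusted p = 0.00157). Rpl10, which joins the large subunit last, was at 0.68 ± 0.29 (edgeR adjusted p = 0.09), and at 0.89 without that piece (edgeR adjusted p = 0.000281). Rpl38 and Rpl13a were at 0.27 ± 0.22 and -0.04 ± 0.33. For Rpl13a the pieces of KO + NM1 ran from 570 to 1360 CPM, on both sides of the 757 to 809 CPM of KO. Rpl23a, Rpl35, Rpl38, Rps10, Rps15, Rps18 and Rpsa were also higher without KO + NM1 piece 1 (edgeR adjusted p = 0.00932 to 0.0388). Rps3, Rps14, Rps19, Rps23, Rps25, Rps28 and Rpl13a did not pass without it.

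To compare members with each other rather than with all genes, each library was scaled to its summed ribosomal protein counts. On that scale 12 members were higher and 6 lower in KO (edgeR), beside 17.5% and 24.1% of all genes, and the median of all genes was -0.23. The large subunit had 10 higher and 1 lower of 51, and the small subunit 2 higher and 5 lower of 33, with 24 of 33 small subunit genes below 0 and 34 of 51 large subunit genes above 0. Since the members were scaled to their own sum, a rise of some sets others lower. The 12 higher were Rpl3, Rpl3l, Rpl8, Rpl10, Rpl10a, Rpl12, Rpl19, Rpl27, Rpl29, Rpl34, Rps2 and Rps26. No fit on this scale added pseudogene counts, with which the calls for Rpl3 and Rpl34 were lost on the scale of all genes. The 6 lower were Rps19, Rps24, Rps27, Rps28, Rps29 and Rpl22. Without KO + NM1 piece 1, 17 were higher and 18 lower on this scale, beside 26.4% and 42.6% of all genes, all 18 of the first calls among them, with 13 higher and 7 lower for the large and 4 higher and 11 lower for the small subunit.

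All 6 lower members of this comparison were also lower without KO + NM1 piece 1. Rps24, a small subunit protein mutated in Diamond-Blackfan anemia, took 1.16%, 1.37% and 1.31% of the ribosomal protein counts in KO and 2.37%, 1.87%, 2.06% and 1.95% in KO + NM1, a relative log2 fold change of -0.69 (edgeR adjusted p = 0.0242). Rps29 took 0.598%, 0.681% and 0.703% in KO and 1.27%, 1.03%, 1.12% and 1.09% in KO + NM1, at -0.77 (edgeR adjusted p = 0.0119). Rps19, another gene of that anemia, took 1.02%, 1.08% and 1.09% in KO and 1.64%, 1.53%, 1.59% and 1.40% in KO + NM1, at -0.54 (edgeR adjusted p = 0.0377). The groups were apart for all 3, with every KO piece below every KO + NM1 piece. Rpl22, which also binds RNA outside the ribosome, took 0.864 to 0.956% in KO and 1.06 to 1.47% in KO + NM1, at -0.57 (edgeR adjusted p = 0.0496). On the opposite side, Rpl8 took 4.83 to 5.49% in KO and 3.09 to 3.36% in KO + NM1, at 0.70 (edgeR adjusted p = 0.0253). Rpl41 took 5.16 to 5.56% and 2.92 to 4.00%, at 0.58, and did not pass with all pieces (edgeR adjusted p = 0.0671). Without KO + NM1 piece 1 Rpl41 passed, at 0.49 (edgeR adjusted p = 0.0142).

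On the scale of all genes Rps24 and Rps29 did not pass with all pieces. Rps24 was at 333, 367 and 327 CPM in KO and at 821, 390, 375 and 411 CPM in KO + NM1, a log2 fold change of -0.54 ± 0.31 (SE; edgeR adjusted p = 0.188), and -0.32 without piece 1 (edgeR adjusted p = 0.0272). Rps29 was at 172, 183 and 175 CPM in KO and at 439, 214, 203 and 229 CPM in KO + NM1, a log2 fold change of -0.62 ± 0.29 (SE; edgeR adjusted p = 0.123), and -0.41 without piece 1 (edgeR adjusted p = 0.00525). Every KO piece was below every KO + NM1 piece for both genes. With piece 1 the differences were larger but did not pass.

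Other genes of translation were counted in 5 lists. Of their 80 genes 79 were tested, and 46 were higher and 5 lower in KO by edgeR, where 25.7% and 24.5% of all genes were. Among ribosome genes that the rule for symbols does not match, Rack1, a scaffold on the small subunit, was at 1450, 1200 and 1150 CPM in KO and at 1050, 640, 517 and 649 CPM in KO + NM1 and was higher, at 0.83 ± 0.28 (edgeR adjusted p = 0.0412). Fau, made as a fusion with a ubiquitin-like protein, was at 0.56 ± 0.27.

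Chaperones and importers of ribosomal proteins had the highest median of the 5 lists, with 10 of 12 tested genes higher, 0 lower by edgeR and a median log2 fold change of 1.55. Ipo7, an importer, was at 220, 150 and 156 CPM in KO and at 35.2, 30.6, 42.2 and 34.6 CPM in KO + NM1 (2.30 ± 0.19, edgeR adjusted p = 0.000364). Grwd1, which carries Rpl3, was at 2.19 ± 0.19 (edgeR adjusted p = 0.000394). For Ipo7, KO + NM1 piece 1 lay within the range of the other pieces of its group. Of 37 initiation factors 24 were higher and 3 lower, with a median of 0.62. Eif4a1, the helicase of the cap complex, and Eif3a, the scaffold of eIF3, had the largest rises, at 1.83 ± 0.15 and 1.46 ± 0.21, and Eif4g3 and Eif1b had the largest falls, at -0.59 ± 0.21 and -0.52 ± 0.13. Of 12 elongation factors and related genes 5 were higher and 2 lower, with a median of 0.45. Eef1a2 and Eef1e1 had the largest rises, at 10.91 ± 0.99 and 1.43 ± 0.14, and Eef2kmt and Tpt1 the largest falls, at -1.03 ± 0.20 and -0.81 ± 0.22. Of 15 regulators of messenger RNAs with a pyrimidine tract 6 were higher and 0 lower by edgeR, with a median of 0.29. Without KO + NM1 piece 1, 7 were higher and 2 lower. The 2 were Eif4ebp1, at -1.82 (edgeR adjusted p = 0.000131), and Rheb, at -0.48 (edgeR adjusted p = 0.00409). With all pieces Eif4ebp1 was at -1.38 ± 0.49 (edgeR adjusted p = 0.0584) and Mtor at 0.15 ± 0.27 (edgeR adjusted p = 0.684). Myc was at 135, 96.6 and 92.3 CPM in KO and at 43.8, 33.9, 22.2 and 35.7 CPM in KO + NM1 (1.67 ± 0.25, edgeR adjusted p = 0.00205), and Larp1, which binds the tract, was at 1.31 ± 0.14 (edgeR adjusted p = 0.000701). Without KO + NM1 piece 1 the 5 lists had 49 higher and 9 lower.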

How the data were processed

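The authors used Trimmomatic 0.36 for trimming, HISAT2 2.0.4 for alignment to GRCm38, SAMtools 0.1.19 for sorting and HTSeq for counts per gene. The deposited values are raw counts for 46603 Ensembl genes, with no normalization. The annotation release, the strand option and the handling of reads that fit several genes are not given in the sources used here. Strand matters where genes overlap, which holds for an exon of 18 members. Symbols came from GENCODE M21 and matched 46091 genes.

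In R 4.3.3, edgeR 4.0.16 served for the filter (filterByExpr, minimum count 10), for TMM factors and for a quasi-likelihood fit of KO minus KO + NM1 over all 7 libraries, with Benjamini-Hochberg adjustment over 16887 genes and a threshold of 0.05. Only 35 splits of 3 against 4 pieces exist, so the smallest exact permutation p would be 0.0286. Alternatives used DESeq2 1.42.0 and limma 3.58.1. The chi-square per degree of freedom between pieces of a group was 35.2 to 687, so none was a repeat of another. The steps were tested on simulated data: of 196 changed among 16586 genes, 4.08% of those changed 2-fold and 45.9% of those changed 4-fold were called, and 2% of calls were false. A far larger share of genes, 50.2%, was called in the tumors. The simulated shares depend on how many genes change, so they do not carry over to the fit used here. A depth of 24088309 counts or more puts 3 counts, the floor used here, at 0.0991 to 0.148 CPM. Shared windows of 75 bases were counted between GENCODE M21 transcripts.

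The members and lists were chosen with earlier results of these data known. Named were paralogs and their parents, members with set roles, the 5 largest rises and 5 largest falls, the 3 highest by counts per kb of exon, members that failed the filter, and in the other lists the ribosome genes and the 2 largest called rises and falls. Rpl12, Eif4ebp1, Rheb and Mtor were named after their values were seen. One member and 1 other ribosome gene are counted in the totals and not reported here by themselves. Genome tracks and other data of the study were not analysed here.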

Additional observations from a re-analysis of the deposited data

Results flagged for a closer look

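In a group of 4 pieces a value is set apart when its gap to the next piece, divided by the range of the group, is above Dixon's 95% critical value for 4 samples. Of 70 values examined, 16 passed in KO + NM1, including a ratio that passed only on rounded values. Chance would give about 1 in 20 among independent values. These values are not independent, since piece 1 was the highest of its group for 81 of the 84 members. The count is therefore a description and not a test, and no explanation was tested. In 15 of them piece 1 was the piece set apart. For Rpl5 the gap ratio was 0.95, for Rps24 and Rps27 0.919 each, for Fau 0.915, for Rpl13a 0.902, for Rps19 0.897, for Rps29 0.892, for Rpl19 0.888, for Rpsa 0.885, for Rpl27 0.869, for Rpl8 0.854, for Rpl10 0.853, for Rps15 0.844 and for Rps25 0.841, in each case with piece 1 at the high end. For the ratio of large to small subunit counts it was 0.833, with piece 1 at the low end. For Eef1a2 it was 0.923, with piece 2 at 0.203 CPM against 0.0365 to 0.0494 CPM, all close to the floor of 3 counts.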

How the results depend on the processing

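The 14 members higher in KO became 8 with every gene of at least 1 count kept, 54 with limma's voom and quality weights, and 4 to 39 with each library left out in turn. The 0 lower became 1 with upper-quartile scaling, 2 with DESeq2, 3 with voom, and 0 to 3 with each library left out. The 4 past 2-fold became 7 with library size alone, 7 with voom, and 2 with pseudogene counts added to their member, an alternative chosen after the data were seen, as were those for members scaled to their sum without KO + NM1 piece 1 and for the other translation genes. Of those, the 5 lower became 1 with library size alone, 8 with voom and 2 to 9 with each library left out, and the 46 higher became 29 to 49. The piece numbers of the groups share only a number: the correlation of their deviations was 0.0802, 0.102 and -0.0165 for pieces 1 to 3. With the number as a replicate block, 8 members were higher and 0 lower, and 1 other translation gene was lower. The median of all genes was -0.10 with DESeq2's size factors, -0.16 with upper-quartile scaling and 0.17 with library size alone. The median over members kept its sign in all 18 alternatives. Rpl3l, Rps26 and Rpl27 passed in every alternative that tested them, and Rpl13a turned from -0.04 to 0.27 (adjusted p = 0.0306) with voom. For most of these alternatives the share of all genes called is not given here. A changed number of calls is thus not shown to be particular to the members or to the other translation genes. The causes of these changes were not tested. A member without a call is not shown to be equal. Depth limits Rpl39l, with 3 to 51 counts, and Rpl3l in KO + NM1, with 1 to 4.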
